A study of Mus musculus with 10 samples.

Results

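The cytosolic ribosome is built from a large (60S) and a small (40S) subunit, and each subunit carries a fixed set of ribosomal proteins around its ribosomal RNA. The genes examined here were the protein-coding mouse genes whose symbol starts with Rpl or Rps and a digit, together with Rplp0, Rplp1, Rplp2 and Rpsa; S6 kinase genes (Rps6k), symbols that mark pseudogenes and Rps19bp1 were left out. The rule found 85 genes among the 55421 gene rows of the count table, 52 of the 60S and 33 of the 40S subunit. They lay on 19 chromosomes, with 14 genes on chromosome 7 and 4 on the X chromosome.

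Ribosomal proteins are made in near-equal numbers, since each ribosome takes up a single copy of most of them, and a protein left without a partner is degraded. Their mRNAs are short, abundant and mostly start with a run of pyrimidines, the terminal oligopyrimidine (TOP) tract, through which mTOR signaling and the RNA-binding protein LARP1 control their translation. Growing and dividing cells keep the set high, and the set is often read as a gauge of biosynthetic activity in immune cells.

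The libraries came from mice of both sexes that received MC17-51 fibrosarcoma cells under the skin at 8 to 12 weeks of age, and cells were collected on day 15. All mice carried floxed alleles of Ptpn11, the gene of the phosphatase SHP-2, and Shp2f/fLysMcre mice also carried Cre recombinase in the Lyz2 (lysozyme M) locus, which is active in neutrophils, monocytes and macrophages. Polymorphonuclear myeloid-derived suppressor cells (PMN-MDSC; the labels read GR-1+ MDSC) were taken from the spleen with magnetic beads, in 2 libraries for each genotype. Tumor-associated macrophages (TAM) were sorted from tumors of the same mice as live CD45+CD11b+F4/80+Ly6G- cells, in 3 libraries for each genotype. Deletion by LysM-Cre need not reach every myeloid cell, and nothing says which libraries came from separate animals, so p-values measure only the spread between these libraries. In bulk RNA, fewer cells of a type and less RNA in each cell cannot be told apart. TAM were compared with PMN-MDSC across tissue and isolation method as well as cell type, and these cannot be told apart.

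Libraries held 28844660 to 38222998 counts. Ptpn11 was at 104 and 118.7 CPM (counts divided by library size, on the usual common scale) in Shp2f/f PMN-MDSC and at 99.75 and 82.59 CPM in Shp2f/fLysMcre PMN-MDSC, a difference that edgeR did not call (adjusted p = 0.361). In TAM it was at 119.3 to 121.8 CPM against 48.71 to 51.9 CPM (adjusted p = 2.96e-09, edgeR). Lyz2, which holds the Cre, fell from 9402 and 9922 to 45.54 and 48.82 CPM in PMN-MDSC. In TAM Lyz2 fell from 3391 to 3568 CPM to 9.033 to 12.07 CPM. Cre and the fall of Lyz2 come with the Shp2f/fLysMcre genotype, so they cannot be told apart from the deletion of Ptpn11. Summed markers listed for the cell types separated them: the 10 neutrophil genes reached 10115 to 32962 CPM in PMN-MDSC against 203 to 298 CPM in TAM, and the 10 macrophage genes 13107 to 20615 CPM in TAM against 2645 to 3338 CPM in PMN-MDSC.

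Sequence at the annotated start of a gene is shown here for the genes with the largest and the smallest genotype difference in TAM, since TOP tracts begin there. RefSeq promoter windows (GRCm38.p6, 250 bases before to 50 after the start) were matched for 65 of the 85 genes. Each line gives 30 bases before and 30 bases from the start onward, on the strand of the gene. Capitals mark the longest unbroken run of C and T that reaches into the stretch from 10 bases before to 15 bases after the start. The first 5 are the genes with the largest falls in TAM.
Rpl12 (chr2:32961682-32961741, plus strand): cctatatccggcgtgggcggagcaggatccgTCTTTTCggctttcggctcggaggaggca
Rps6 (chr4:86857338-86857397, minus strand): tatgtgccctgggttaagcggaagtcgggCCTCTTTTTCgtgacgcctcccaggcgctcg
Rpl36a (chrX:134585624-134585683, plus strand): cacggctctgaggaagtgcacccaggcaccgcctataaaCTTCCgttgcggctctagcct
Rpl14 (chr9:120571487-120571546, plus strand): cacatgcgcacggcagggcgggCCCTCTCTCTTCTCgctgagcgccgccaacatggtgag
Rpsa (chr9:120127736-120127795, plus strand): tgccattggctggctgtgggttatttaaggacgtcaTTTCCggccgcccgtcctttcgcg
The next 3 are among the genes with the smallest falls in TAM, which edgeR did not call.
Rps27 (chr3:90213619-90213678, minus strand): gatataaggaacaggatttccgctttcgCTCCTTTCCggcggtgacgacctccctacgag
Rps9 (chr7:3704011-3704070, plus strand): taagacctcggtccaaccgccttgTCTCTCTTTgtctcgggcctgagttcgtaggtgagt
Rpl36al (chr12:69184038-69184097, minus strand): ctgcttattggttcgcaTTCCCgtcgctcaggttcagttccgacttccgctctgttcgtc

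The marked run was 7, 10, 5, 14 and 5 bases long in the first 5 genes and 9, 9 and 5 bases in the other 3, so both sets held short and long runs. A run of at least 8 pyrimidines in that stretch was found for 30 of the 65 ribosomal protein genes (46.2%) and for 17.6% of the 27025 genes in the promoter table. CCGGAAG, the core site of ETS factors, was present on either strand of the 300-base window in 40% of the ribosomal protein genes and 9.93% of all genes. AAGATGGC, a core site of YY1, was present on either strand in 9.23% against 3.19%. The E-box CACGTG, bound by MYC and MAX, was found in 9.23% against 8.09% and TATAAA in 10.8% against 15.7%. Both strands were searched, different motifs may overlap, and a letter match does not show binding.

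The ribosomal protein genes together took 3.82% and 4.38% of all counts in Shp2f/f PMN-MDSC and 3.66% and 4.93% in Shp2f/fLysMcre PMN-MDSC. In TAM they took 2.8%, 2.84% and 2.78% of counts in Shp2f/f and 2.18%, 2.08% and 2.02% in Shp2f/fLysMcre libraries. The genotypes thus overlapped in PMN-MDSC and did not overlap in TAM. Mean shares were 4.1% ± 0.394 (SD, n = 2) and 4.3% ± 0.901 (SD, n = 2) in PMN-MDSC, and 2.81% ± 0.0326 (SD, n = 3) and 2.1% ± 0.0774 (SD, n = 3) in TAM. Counts of 60S genes exceeded those of 40S genes 1.13 to 1.18 times in PMN-MDSC and 1.29 to 1.31 times in TAM.

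**Figure D1:**
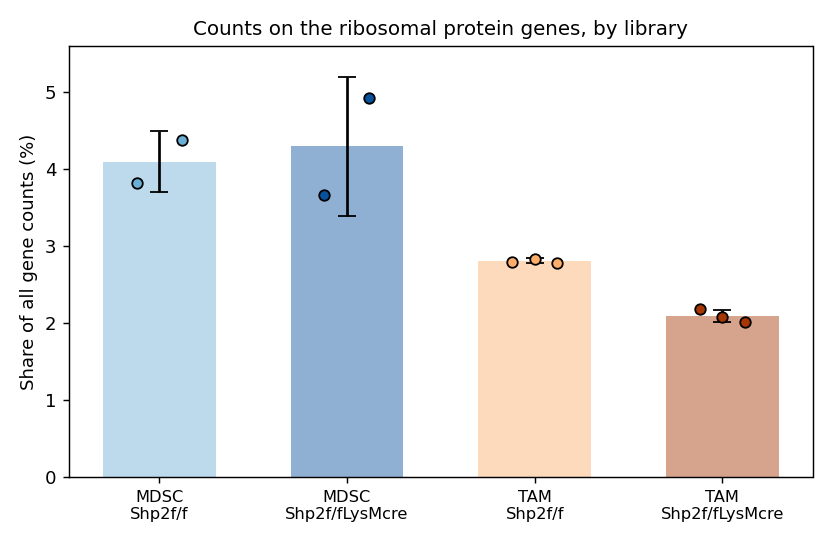
Share of all gene counts on the 85 ribosomal protein genes (percent, y axis) in the 4 groups (x axis). Points are libraries, bars are group means and error bars are 1 SD (n = 2 in PMN-MDSC, n = 3 in TAM); the Shp2f/fLysMcre TAM libraries, at 2.02% to 2.18%, sit below the Shp2f/f TAM libraries, at 2.78% to 2.84%.

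In TAM, the ribosomal protein genes were lower in Shp2f/fLysMcre than in Shp2f/f libraries almost as a block. Of the 84 genes that passed the filter on low counts, 77 fell and none rose by edgeR's quasi-likelihood test at an adjusted p under 0.05 (78 at an unadjusted p under 0.05; DESeq2 called 75 lower). Over all genes tested in TAM, 26.3% were called lower, 23.9% higher and 50.2% in either direction. In 1 fit of all 10 libraries, 36 of the 84 genes were called lower and none higher, with 29.2% of all genes called. With total-count scaling 82 were called lower, and the calls over all genes went from 3452 higher and 3805 lower to 2341 higher and 5225 lower. The median log2 fold change of the ribosomal protein genes was -0.31, so that the median gene fell by 19.5%, against -0.01 over all genes. Their middle 50% lay between -0.38 and -0.26, whereas that of all genes lay between -0.28 and 0.21. The falls of called genes ran from 11% to 29.6%. Groups did not overlap, with all 3 Shp2f/fLysMcre libraries below all 3 Shp2f/f libraries, for 76 of the 84 genes, and 30.6% of all tested genes had that pattern; no gene had the opposite pattern, which 27.7% of all tested genes had. Groups overlapped in Rpl36al, Rpl3l, Rps27, Rps27rt, Rps29 and Rps9, which were not called, and in Rpl41, which was called lower.

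Other features moved with this difference. The summed CPM of 12 proliferation genes was 1276 to 1291 in Shp2f/f and 723 to 769 in Shp2f/fLysMcre TAM, with 12 of 12 genes called lower. Macrophage markers summed to 13107 to 13548 against 19111 to 20615 CPM (9 of 10 called higher, 1 lower). B cell markers summed to 21.8 to 23.4 against 48.5 to 52 CPM (2 of 4 tested genes called higher). T cell markers summed to 13.9 to 15.9 against 5.55 to 7.17 CPM (8 of 8 lower). Plasma cell markers summed to 700 to 723 against 484 to 515 CPM, but the genes of this list went both ways. Of its 7 genes 4 were tested, with 2 called lower and 1 called higher. Neutrophil markers summed to 203 to 217 against 282 to 298 CPM (4 of 9 tested genes called higher, none lower). The 7 markers of pancreatic islets (7 of 7 lower) summed to 878 to 6897 CPM in Shp2f/f and 6 to 77.3 CPM in Shp2f/fLysMcre TAM, the highest value being in Shp2f/f replicate 3. Without that library 75 ribosomal protein genes were called lower, and the share of all genes called without it is not reported here. No marker of these lists was at 0 in all TAM libraries. Counts on mitochondrial genes were 1.04% to 1.1% against 0.552% to 0.937%. The part of these features in the fall was not tested.

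**Figure D2:**
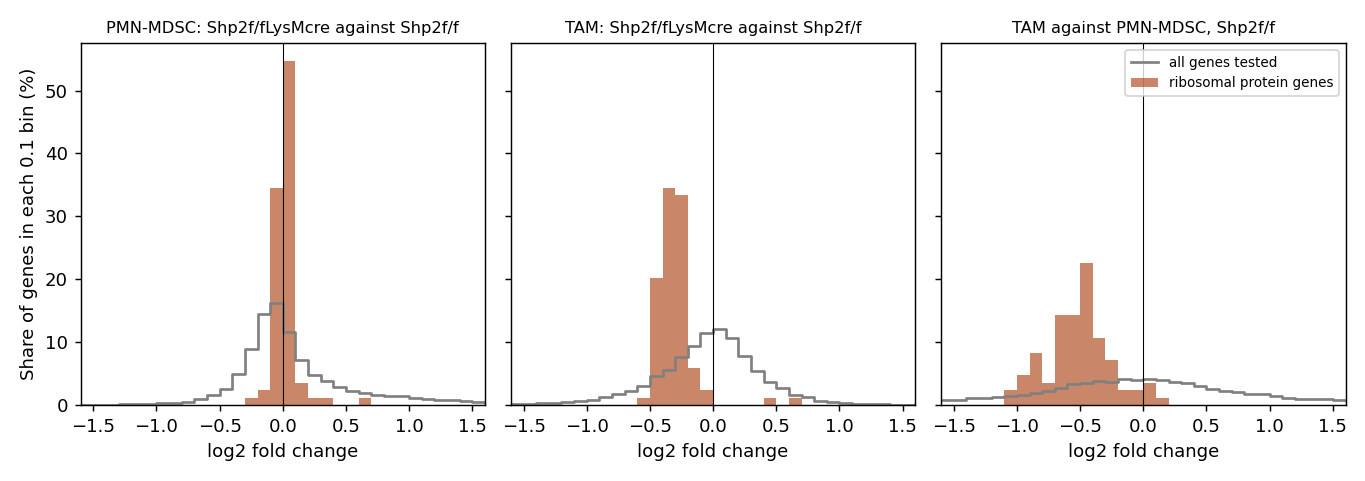
Distribution of log2 fold changes (x axis, bins of 0.1) as a percent of genes (y axis) for the ribosomal protein genes (filled) and for all genes tested (line) in PMN-MDSC, in TAM, and in TAM against PMN-MDSC. The ribosomal protein genes center near 0 in PMN-MDSC (median 0.02), at -0.31 in TAM and at -0.49 between cell types; in the last panel Rpl39l and Rpl3l lie outside the axis.

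Rpl12, a protein at the base of the stalk that recruits elongation factors, had the largest fall among the 81 genes whose mean reached 10 CPM. It was at 410.9, 434.6 and 422.5 CPM in Shp2f/f TAM and at 301.8, 303.1 and 288.1 CPM in Shp2f/fLysMcre TAM (log2 fold change -0.51, SE 0.04, adjusted p = 1.63e-06, edgeR). The other stalk genes fell as well, so that 4 of 4 genes of this group were called lower (median -0.35). Of the whole set, 77 of 84 (91.7%) were called lower, against 26.3% of all tested genes. Rplp0, the stalk's scaffold, was at 1176 to 1197 CPM in Shp2f/f and 890.9 to 953.8 CPM in Shp2f/fLysMcre TAM. Its acidic partners Rplp1 and Rplp2, which bind the factors, changed by -0.34 and -0.25 on the log2 scale.

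Rps6, the 40S protein phosphorylated by S6 kinases downstream of mTOR, was at 239.1, 251.2 and 231 CPM in Shp2f/f TAM and at 173.9, 173.7 and 164.7 CPM in Shp2f/fLysMcre TAM (log2 fold change -0.49, SE 0.04, adjusted p = 3.9e-06, edgeR). Rpsa, a 40S protein also known as the laminin receptor, was at 599.6 to 626.9 CPM against 422.9 to 458.7 CPM (log2 fold change -0.47). Rps2, which lies at the mRNA entry channel, was at 831.4 to 880.5 against 610.5 to 681.6 CPM (-0.41). Across the 14 genes listed for the 40S head, where mRNA and transfer RNA are held, 13 were called lower (median -0.35) and Rps29 was not. This was near the share of the whole set, 77 of 84 (91.7%), where 26.3% of all tested genes were called lower.

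Among genes of the 60S core, Rpl3 and Rpl4, which reach into the catalytic center and the exit tunnel, changed by -0.43 and -0.41. Rpl14, another 60S protein, was at 332.7 to 347 CPM in Shp2f/f and 229.7 to 258.5 CPM in Shp2f/fLysMcre TAM (log2 fold change -0.48). All 7 genes listed around the peptide exit tunnel were called lower (median -0.31), with Rpl35 at 146.2 to 157 against 109.2 to 111.2 CPM. Rpl5 and Rpl11 form a particle with 5S ribosomal RNA that can also bind and hold MDM2, the regulator of p53. Both were called lower (log2 fold changes -0.41 and -0.31). The tunnel and 5S lists thus followed the whole set, with 77 of 84 genes (91.7%) called lower, against 26.3% of all tested genes.

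Heterozygous loss of a ribosomal protein gene causes Diamond-Blackfan anemia, a failure of red cell formation. Of the 18 genes of this list, 16 were called lower in TAM (median -0.32), among them Rps19, the gene most often mutated in the disease, at 334.3 to 349.8 against 244.5 to 257.8 CPM. Rps27 and Rps29 were the other 2. The share called lower was near that of all ribosomal protein genes, 77 of 84 (91.7%), where 26.3% of all tested genes were called lower.

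The 60S and 40S sets moved alike in TAM: 48 of 51 genes of the 60S were called lower (median -0.31) and 29 of 33 of the 40S (median -0.34). All 4 X-linked genes, Rpl10, Rpl36a, Rpl39 and Rps4x, were called lower, as were 73 of 80 autosomal genes and 26.3% of all tested genes. Rpl10, which joins the 60S subunit late in its assembly, had the smallest change of the 4 (534.1 to 564.5 against 467.1 to 488.9 CPM, -0.19). Rpl36a, at 99.34 to 104.9 against 67.87 to 81.46 CPM, had the largest (-0.49).

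In TAM, 7 of the tested genes were not called, and 4 of them had means above 10 CPM. Rps27, a zinc-binding 40S protein, was at 211.3, 221.4 and 211.3 CPM in Shp2f/f and 203.8, 206.6 and 212.8 CPM in Shp2f/fLysMcre TAM, so the groups overlapped (log2 fold change -0.05, SE 0.04). Rps9, at 788.1 to 806.4 against 704.1 to 818.6 CPM (-0.07), Rps29, at 122.6 to 127.1 against 102.1 to 130.7 CPM (-0.13), and Rpl36al, at 13.45 to 14.13 against 11.65 to 13.71 CPM (-0.16), also had overlapping groups. In Rps9 and Rps29 the value of Shp2f/fLysMcre replicate 1 was the highest of all 6 libraries. The other 3, Rpl3l, Rpl39l and Rps27rt, stayed under 10 CPM.

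**Figure D3:**
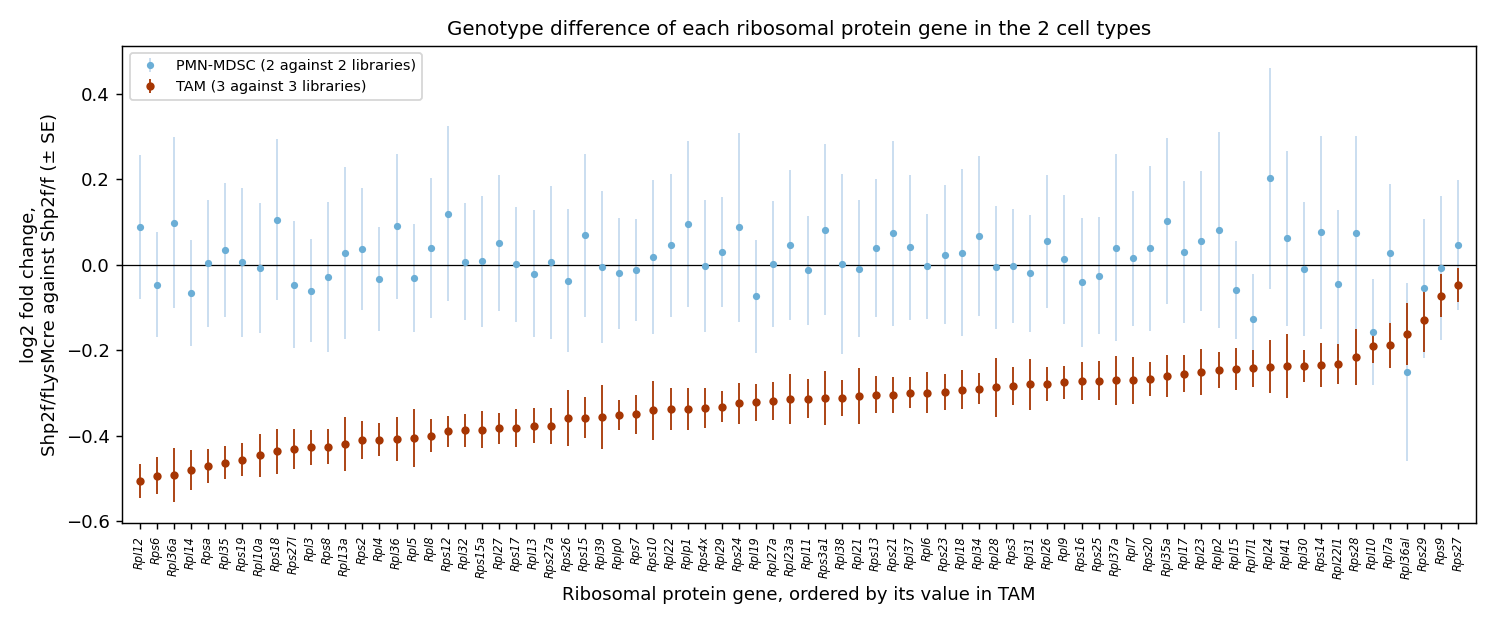
Genotype log2 fold change (y axis, Shp2f/fLysMcre against Shp2f/f; error bars are 1 SE of the edgeR fit) of 78 of the 81 tested ribosomal protein genes with at least 10 CPM (3 are not drawn), ordered along the x axis by their value in TAM, from Rpl12 (-0.51) to Rps27 (-0.05). PMN-MDSC values (light) scatter around 0 with wider errors (median SE 0.164) than those of TAM (dark, median SE 0.0456).

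In PMN-MDSC, no ribosomal protein gene was called by edgeR, and none had an unadjusted p under 0.05; DESeq2 called none either. Over all genes tested in PMN-MDSC, 4.28% were called, 3.76% higher and 0.52% lower. The median log2 fold change of the ribosomal protein genes was 0.02, against -0.015 over all genes, with 52 genes above 0 and 32 below. Groups did not overlap for 1 gene that was higher, Rpl3l, and 2 that were lower, Rpl10 and Rpl7l1 (named after their values were seen), and 24.6% of all tested genes showed each of these patterns.

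The 2 PMN-MDSC libraries of a genotype differed more than the genotypes did, and they differed in the same direction for nearly every gene. Replicate 2 exceeded replicate 1 for 83 of 84 genes in Shp2f/f and for 84 of 84 in Shp2f/fLysMcre, with median log2 differences of 0.2 and 0.36. The highest of the 4 libraries was Shp2f/fLysMcre replicate 2 for 64 genes and Shp2f/f replicate 2 for the other 20. The lowest was Shp2f/fLysMcre replicate 1 for 64 genes and Shp2f/f replicate 1 for 20. Rps6, for example, was at 340.6 and 387.6 CPM in Shp2f/f and at 346.1 and 359 CPM in Shp2f/fLysMcre PMN-MDSC, and Rplp2 was at 684.5 and 821.2 against 629.4 and 964.9 CPM. The median standard error of a genotype difference was 0.164 in PMN-MDSC and 0.0456 in TAM, so smaller differences could be resolved in TAM.

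Among genes with a mean of 10 CPM or more, the largest positive values in PMN-MDSC belonged to Rpl24 (18.7 and 21.88 against 17.4 and 29.28 CPM, log2 fold change 0.2, SE 0.26), Rps12 (0.12), Rps18 (0.11), Rpl35a (0.1) and Rpl36a (0.1). The largest negative values belonged to Rpl36al (25.49 and 30.32 against 19.05 and 27.82 CPM, -0.25, SE 0.21), Rpl10 (-0.16), Rpl7l1 (-0.13), Rpl19 (-0.07) and Rpl14 (-0.07). None was called, and the groups overlapped in Rpl24 and Rpl36al. The proliferation list moved in the other direction from TAM, from 975 to 1017 CPM in Shp2f/f to 1936 to 2087 CPM in Shp2f/fLysMcre PMN-MDSC (10 of 12 genes called higher). Neutrophil markers rose from 10115 to 10287 CPM to 28948 to 32962 CPM (7 of 10 called higher) and erythroid markers from 276 to 297 CPM to 605 to 761 CPM (6 of 8 higher). Leaving out 1 library at a time moved the median of the ribosomal protein genes from -0.16 without Shp2f/fLysMcre replicate 2 to 0.15 without Shp2f/fLysMcre replicate 1.

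**Figure D4:**
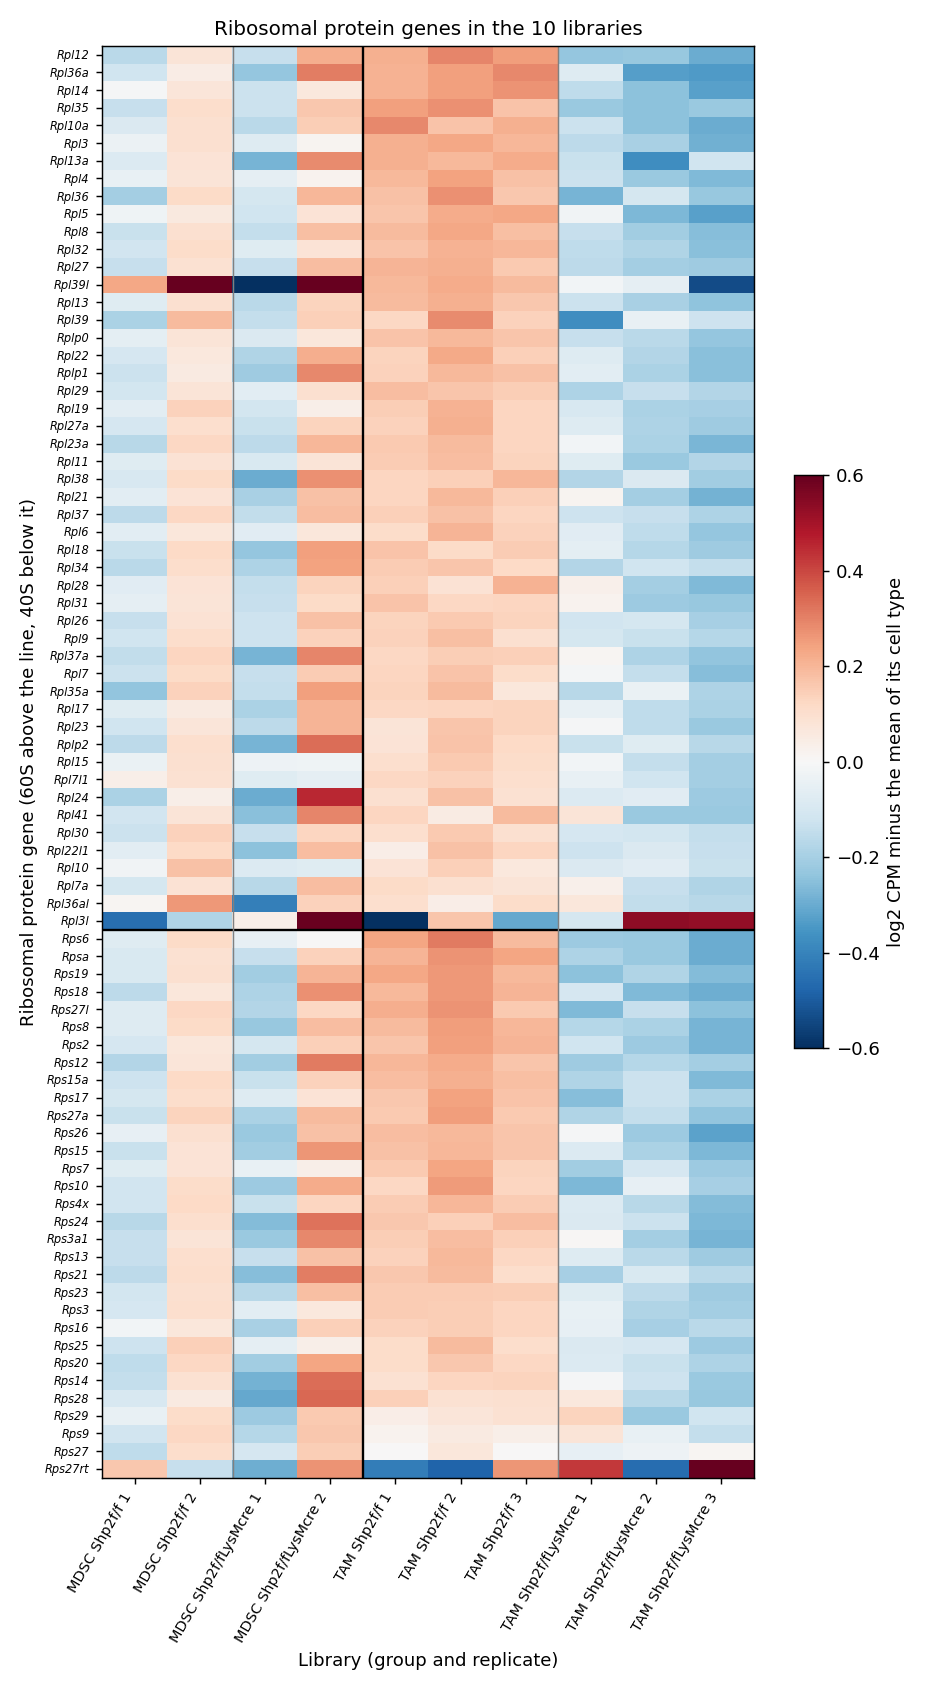
Level of 81 of the 84 tested ribosomal protein genes (3 are not drawn; rows, 60S above and 40S below the horizontal line, each ordered by its TAM fold change) in the 10 libraries (columns). Color is log2 CPM minus the mean of the gene's cell type, cut at 0.6. Over the 84 tested genes, in TAM the Shp2f/f columns have medians of 0.14 to 0.19 and the Shp2f/fLysMcre columns -0.09 to -0.22, and in PMN-MDSC the medians were -0.11 and 0.1 in Shp2f/f and -0.15 and 0.18 in Shp2f/fLysMcre replicates 1 and 2.

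The difference between the genotype effects of the cell types was tested as an interaction over all 10 libraries. It was called for 10 of 84 genes, each more negative in TAM: Rpl12, Rpl14, Rpl29, Rpl3, Rpl32, Rpl35, Rpl4, Rps2, Rps6 and Rpsa. Over all tested genes, 12.7% were called in that direction and 24.9% in either, so the share of ribosomal protein genes called was near the background. Sizes ran from -0.57 in Rpl12 (SE 0.155, adjusted p = 0.0251, edgeR) to -0.34 in Rpl29 (SE 0.103, adjusted p = 0.0415), with a median of -0.31 over the 84 genes and -0.01 over all genes. Rpl36a (-0.56), Rps18 (-0.52), Rps12 (-0.48) and Rpl36 (-0.47) had values as large, with adjusted p of 0.065 to 0.0955. Among genes with a mean of 10 CPM or more, the other end held Rpl36al (0.12), Rpl10 (-0.004), Rps9 (-0.04), Rps29 (-0.05) and Rps27 (-0.07), none of them called. The count rested on single PMN-MDSC libraries. Without Shp2f/fLysMcre PMN-MDSC replicate 2, for instance, the value of Rpl12 was -0.367 and that of Rpl29 -0.242. The count was also 1 to 2 without Shp2f/f TAM replicate 1, 2 or 3 or Shp2f/fLysMcre TAM replicate 2 or 3. Shares of all genes called in these fits are not reported here, so the counts cannot be set against a background.

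Between cell types in Shp2f/f mice, the ribosomal protein genes were lower in TAM than in PMN-MDSC. Of 84 genes, 76 were called lower and 2 higher, where 38.8% of all tested genes were lower, 40% higher and 78.8% either. Groups did not overlap for the same numbers of genes, 76 lower and 2 higher, against 42.6% and 43.6% of all tested genes. The median was -0.49 against 0.01 over all genes. The 40S set (median -0.6) lay further down than the 60S set (median -0.48). Rps9, an early-binding 40S protein, was at 1626 and 1909 CPM in PMN-MDSC and at 819.9 to 840.4 CPM in TAM, the largest fall among well expressed genes (log2 difference -1.09). Rps28, a small 40S protein, followed with 115.8 and 127.7 against 59.54 to 61.64 CPM (-1.01). Rpl12, Rpl29, Rpl3, Rpl36, Rps2 and Rps27l were not called, for instance Rpl3 with 556.5 and 606.8 against 592.4 to 605.7 CPM. In Shp2f/fLysMcre libraries the same comparison gave a median of -0.8, against -0.05 over all genes. The comparison in Shp2f/f mice uses the same Shp2f/f libraries as the genotype comparisons.

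Several ribosomal proteins have a second gene. Rpl39l and Rpl3l, paralogs of Rpl39 and Rpl3 known from testis and from striated muscle, went in opposite directions between cell types. Rpl39l was counted 10 and 14 times in Shp2f/f PMN-MDSC and 75, 88 and 81 times in Shp2f/f TAM (log2 difference 2.67, SE 0.26, adjusted p = 7.85e-06, edgeR). Rpl3l was counted 84 and 102 times in Shp2f/f PMN-MDSC and 5, 12 and 8 times in TAM (-3.54, SE 0.3, adjusted p = 3.35e-06). Their shares of the pair remained small: Rpl39l made up 0.218% and 0.234% of the counts of Rpl39 and Rpl39l in Shp2f/f PMN-MDSC and 2.11% to 2.3% in Shp2f/f TAM. In Shp2f/fLysMcre PMN-MDSC Rpl39l had 1 and 35 counts. Rpl7l1, a relative of Rpl7, was the other gene called higher in TAM (99.86 and 103.2 against 111 to 113.9 CPM, 0.15).

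Rps27l, a paralog of Rps27 that p53 can induce, made up 27.3% to 28.2% of the pair's counts in Shp2f/f TAM and 22% to 23.9% in Shp2f/fLysMcre TAM, as Rps27l fell (82.78 ± 3.2 to 61.39 ± 2.94 CPM, SD, n = 3, log2 fold change -0.43) while Rps27 was not called. Rpl36al, a copy of the X-linked Rpl36a on chromosome 12, made up 11.7% to 12.4% of its pair in Shp2f/f and 14.4% to 14.7% in Shp2f/fLysMcre TAM. In PMN-MDSC its shares were 15% and 15.8% in Shp2f/f and 12.5% and 12.6% in Shp2f/fLysMcre, so the order of the genotypes was the reverse of that in TAM. Rpl22l1 made up 21.8% to 23.2% of its pair in PMN-MDSC and 19.9% to 22.3% in TAM, and Rpl7l1 7.95% to 10% and 14.5% to 15.3%. No test was made of these shares. How reads that match several genes were counted is not given, so the counts of paralogs are uncertain. In Rps27 only 1.32% of the 42-base stretches of its principal coding transcript were absent from the transcripts of every other gene.

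**Figure D5:**
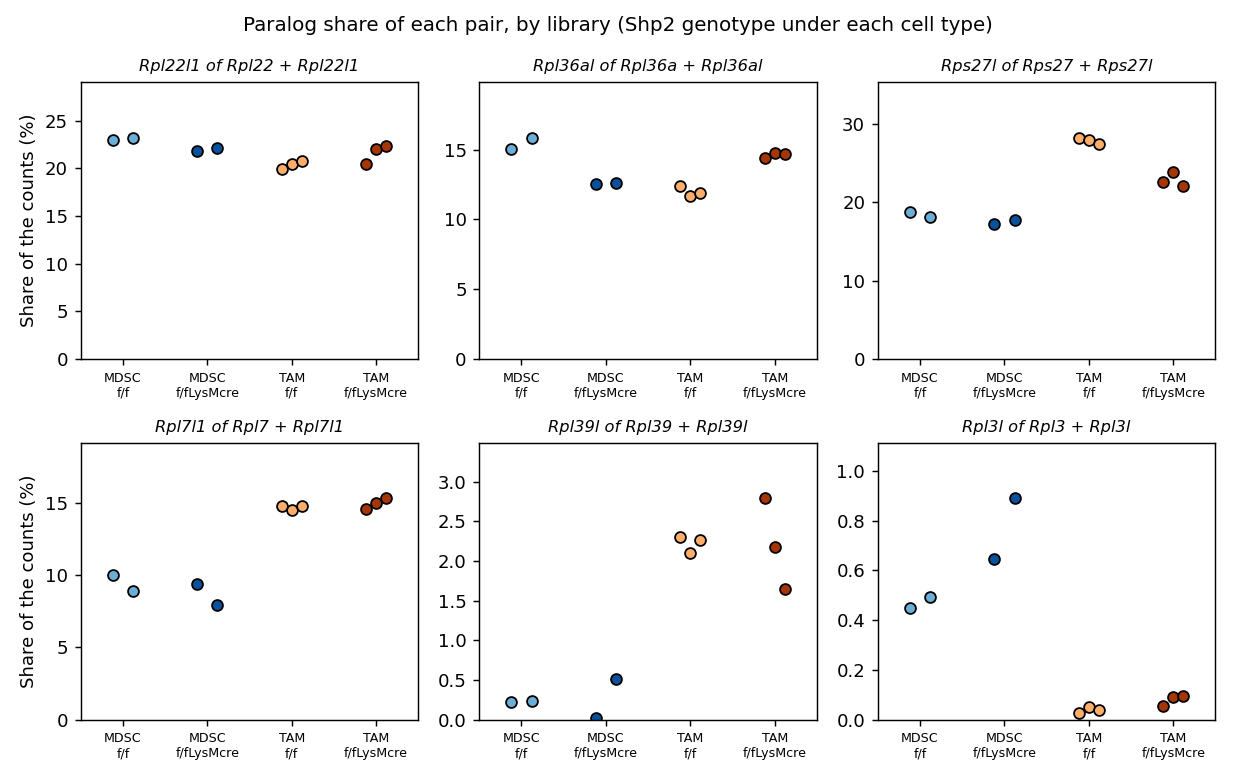
Share of a pair's counts that fell on the paralog (percent, y axis, each panel with its own scale from 0) in the 4 groups (x axis); points are libraries. Rps27l takes 27.3% to 28.2% of its pair in Shp2f/f TAM and 22% to 23.9% in Shp2f/fLysMcre TAM, and Rpl39l and Rpl3l reach at most 2.79% and 0.889% of theirs.

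Rps27rt, a retrogene of Rps27 on chromosome 9, had 20 to 62 counts in each library, and Rpl10l, an intronless relative of Rpl10 known from testis, was the 1 gene that did not pass the filter. It had 0 to 2 counts in 9 libraries and 24 in Shp2f/fLysMcre TAM replicate 3. That library also had the most counts on the 300 rows named as pseudogenes of these genes, 116 CPM, or 0.574% of the ribosomal protein counts, against 70.6 and 81.8 CPM in its group and 92.9 to 98.4 CPM in Shp2f/f TAM. Without it, 74 genes were called lower in TAM and the median was -0.28, and the share of all genes called is not reported here. With the pseudogene rows added to their genes the count was 77, with 50.2% of all genes called. Many reads of 42 bases could come from more than 1 gene. This was measured on 1 principal coding transcript per gene and on single reads, although reads came in pairs. For 48 of the 85 genes, fewer than 50% of that transcript's 42-base stretches were absent from the transcripts of every other gene. The share was 1.32% in Rps27 and 100% in Rpl3l. Of those 48, 45 were called lower in TAM (median -0.31), and of the 36 other tested genes 32 were (median -0.31).

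Levels can be compared between genes only per length. In RPKM, the CPM divided by the length in kilobases of all exons merged, the median gene was at 214 in PMN-MDSC and at 133 in TAM, and 50% of genes lay between 104 and 362 and between 65 and 218. Rplp1 was highest in both, at 1719 ± 154 (SD, n = 2) in Shp2f/f and 1848 ± 469 (SD, n = 2) in Shp2f/fLysMcre PMN-MDSC and at 1178 ± 30 (SD, n = 3) and 956 ± 66.4 (SD, n = 3) in TAM. Rps15, a head protein of the 40S, and Rplp0 followed in PMN-MDSC (means of 1016 and 1004 RPKM), and Rplp0 and Rpl4 in TAM. Rps15 and Rplp0 did not differ beyond their spread. Rpl10l, Rpl39l and Rpl3l were lowest in PMN-MDSC, and Rpl10l, Rpl3l and Rps27rt in TAM. Rps27rt came next in PMN-MDSC (3.45 RPKM) and Rpl39l in TAM (2.4 RPKM), and above these 4 genes stood Rps10, at 14.7 RPKM in PMN-MDSC and 7.41 in TAM. By the length of the principal coding transcript, the medians were 519 and 356 RPKM and Rps9 ranked first in both cell types (2300 and 1067 RPKM, the latter equal to Rplp1 in TAM), so the order of the highest genes depended on the length used.

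Fau encodes a 40S protein fused to a ubiquitin-like sequence and lies outside the symbol rule. It was at 328.4 to 336.2 CPM in Shp2f/f and 303.2 to 328.4 CPM in Shp2f/fLysMcre TAM and was not called (log2 fold change -0.08, adjusted p = 0.12, edgeR), nor was it called in PMN-MDSC.

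Among 24 other genes listed as having TOP mRNAs, mostly translation factors, 20 were called lower in TAM (median -0.29), none higher, against the same 26.3% and 23.9% of all tested genes, and 1 was called in PMN-MDSC. The elongation factor genes Eef1g and Eef2 changed by -0.55 and -0.36 in TAM and the nucleolar gene Npm1 by -0.6, while Tpt1 (-0.002) and Eif4a2 (0.08) were not called. Pabpc4, a poly(A)-binding protein gene, was at 62.55 ± 0.113 CPM in Shp2f/f and 34.24 ± 1.14 CPM in Shp2f/fLysMcre TAM (SD, n = 3) and was the 1 gene of this list called in PMN-MDSC, where it was higher (47.26 ± 0.0241 against 71.74 ± 2.01 CPM, SD, n = 2).

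Of 15 tested genes on a list of regulators of ribosome production and TOP translation, 8 were lower and 2 higher in TAM (median -0.13), where 26.3% of all tested genes were lower and 23.9% higher. Polr1a, the catalytic subunit of RNA polymerase I, changed by -0.72, its factors Ubtf and Rrn3 by -0.32 and -0.28, and Larp1 by -0.28. Mxd1, a MAX partner that opposes MYC, rose from 400.6 ± 5.98 to 585.2 ± 9.7 CPM (SD, n = 3, 0.55). Myc (56.91 ± 2.09 and 53.76 ± 4.05 CPM, SD, n = 3, -0.08) and Mtor (-0.05) were not called in TAM, and no gene of the list was called in PMN-MDSC.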

How the data were processed

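The authors isolated RNA (400 ng per library), selected poly(A) RNA, made stranded libraries and sequenced them as paired 42-base reads. Per the submitters' processing notes, reads were checked with FastQC 0.11.5, trimmed with cutadapt 2.5, aligned to GRCm38 with STAR 2.7.3a and counted on Ensembl 98 genes with featureCounts of Subread 1.6.2. The strand setting and what was done with multi-mapped reads are not given in the sources used here, so counts of paralogs and of genes with pseudogenes are uncertain. The authors deposited raw counts, used here, and counts divided by DESeq2 1.24.0 size factors, not used. Of 55421 gene rows, 24391 had no counts.

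Rows were matched by identifier to GENCODE vM21 (99.52% of rows). Genes were kept by filterByExpr (minimum count 10), scaled by TMM and tested with edgeR 4.0.16 in R 4.3.3 by its quasi-likelihood F test, with Benjamini-Hochberg adjustment over all genes tested and calls at an adjusted p under 0.05. Genotype was fitted within each cell type, the interaction over 10 libraries and cell type over the 5 Shp2f/f libraries. CPM are TMM-scaled within each comparison, and RPKM are TMM-scaled over all 10 libraries. Marker sums and shares use total counts. The interaction fit treats libraries as independent, although both cell types came from the same mice. Code was tested on simulated data. Alternatives used DESeq2 1.42.0, limma 3.58.1, other scaling, filters, blocks and left-out libraries.

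Named genes were, for each genotype comparison and the interaction, the 5 with the largest rise and the 5 with the largest fall at a mean of at least 10 CPM; the 3 highest and 3 lowest per length; paralogs; X-linked genes; members of functional lists; Fau; and Ptpn11 and Lyz2. Members and lists were chosen with earlier results of these data known, and the examples within functional lists after their values were seen. Some genes that this rule names are not reported here by name. Depth of 28844660 to 38222998 counts limits genes under 10 CPM most.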

Additional observations from a re-analysis of the deposited data

Results flagged for a closer look

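The genotype effect differed between the cell types, by the interaction test over 10 libraries (edgeR, adjusted p under 0.05), for 10 of 84 ribosomal protein genes (11.9%), where 12.7% of all tested genes were called in the same direction. The count depended on single libraries, of PMN-MDSC and of TAM. The TAM minus PMN-MDSC differences of the log2 fold changes were -0.567 for Rpl12, -0.387 for Rpl14, -0.335 for Rpl29, -0.338 for Rpl3, -0.365 for Rpl32, -0.47 for Rpl35, -0.347 for Rpl4, -0.42 for Rps2, -0.418 for Rps6 and -0.447 for Rpsa. Each was lower in Shp2f/fLysMcre TAM and not called in PMN-MDSC. With weights per cell type in limma's voom, 4 genes were called, and the share of all genes called with these weights is not reported here.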

How the results depend on the processing

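TAM calls numbered 73 to 80 when 1 library was left out (medians -0.347 to -0.28). Without Shp2f/f replicate 1, 76 were called and 44.6% of all genes. Without Shp2f/f replicate 2, 76 were called and 44.4% of all genes. Shares for the other left-out TAM libraries are not reported here. One fit of all 10 libraries gave 36, all lower, with 29.2% of all genes called. With total-count scaling the median of all genes was -0.111 in TAM and -0.184 in the interaction, against -0.013 in both; the TAM median of the ribosomal protein genes was then -0.411. In PMN-MDSC the leave-one-out medians ran from -0.159 to 0.149, and a filter of 1 count gave a median of -0.001. The interaction count was 20 by DESeq2, 37 with total-count scaling, 2 with genes of at least 1 count, 17 with at least 1 CPM in every library of 1 group, 4 with voom weights and 0 to 71 leaving out 1 library (medians -0.469 to -0.124). Between cell types leave-one-out calls were 76 to 80 (medians -0.593 to -0.409), and the Shp2f/fLysMcre libraries gave a median of -0.796. The cause of these changes was not tested.

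With replicate number as a replicate block, 77 genes were called in TAM (median -0.316), 0 in PMN-MDSC (0.008) and 43 in the interaction (-0.31). Over all genes, 47.8% were called in TAM and 18.1% in PMN-MDSC with this block, and the share in the interaction is not reported here. Same-numbered libraries were not shown to pair. Correlations of their deviations over all genes were 0.17 in PMN-MDSC and -0.083, 0.064 and 0.034 in TAM. With 2 libraries per group the PMN-MDSC deviations mirror each other, so 0.17 is 1 value for both replicate numbers. In PMN-MDSC, replicate 2 exceeded replicate 1 for 83 of 84 ribosomal protein genes in Shp2f/f and 84 of 84 in Shp2f/fLysMcre.

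Single values changed sign. With 1 library left out, the PMN-MDSC values ran from -0.223 to 0.503 for Rpl24, -0.164 to 0.33 for Rps12, -0.144 to 0.292 for Rps18, -0.107 to 0.302 for Rpl35a, -0.198 to 0.317 for Rpl36a and -0.175 to 0.029 for Rpl19, and the interaction values from -0.132 to 0.428 for Rpl36al, -0.081 to 0.096 for Rpl10, -0.198 to 0.152 for Rps9, -0.225 to 0.163 for Rps29 and -0.188 to 0.071 for Rps27. Rpl10 was at 0.028 in the interaction by DESeq2 and with its size factors and at 0.027 with genes of at least 1 count, and Rpl36al at -0.064 with total-count scaling. Median RPKM by the longest transcript was 330 in PMN-MDSC and 217 in TAM.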
